A study of Homo sapiens with 6 samples.

Results

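Amino acid transporter genes of 6 solute carrier families were examined in IOMM-Lee cells, an established human line of grade 3 meningioma, which grows from the meninges that cover the brain. The members are the protein-coding genes of the deposited count table whose symbols begin with SLC1A, SLC3A, SLC7A, SLC36A, SLC38A or SLC43A followed by a number. They are 40 of 61859 genes: 7 of SLC1, 2 of SLC3, 13 of SLC7, 4 of SLC36, 11 of SLC38 and 3 of SLC43. Cells were kept for 48 h in a workstation at 0.2% oxygen (hypoxia, n = 3 libraries) or for 48 h in normoxia, whose oxygen level the labels do not state (n = 3 libraries). All libraries come from this 1 line in serum-containing medium, and the labels call them biological replicates without saying which cultures they came from. RNA was sequenced, and reads were counted per gene.

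Cells take up amino acids through carriers that differ in what they move and in what drives them. SLC1 proteins use the sodium gradient to bring in glutamate and aspartate, or exchange small neutral amino acids such as serine and glutamine. SLC7 light chains pair with an SLC3 heavy chain in the membrane and exchange one amino acid for another, while the SLC7 cationic transporters work alone and carry arginine and lysine. SLC38 proteins concentrate glutamine and alanine, or act at the lysosome, where SLC38A9 reports arginine to the growth kinase mTORC1. Some SLC36 proteins move small amino acids with protons, and SLC43 proteins let branched chain amino acids pass down their gradient. The translation-control pathway from the kinase GCN2 to the factor ATF4 raises many of these genes when amino acids run short, and hypoxia-inducible factors act on some of them.

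The libraries held 10619864 to 18447885 counts in hypoxia and 14685317 to 19554178 in normoxia. Levels are CPM, counts scaled to a common library total with TMM factors, and a floor of 3 counts per library is 0.180 to 0.315 CPM in hypoxia and 0.133 to 0.183 CPM in normoxia, counting error only. Levels are shares of each library's RNA, and with bulk RNA fewer expressing cells and less RNA per cell cannot be told apart. Hypoxia replicate 3 stood apart from the other hypoxia libraries on the second principal component (7.83% of the variance). Of all genes tested, 4.05% differed more than 2-fold there from the mean of hypoxia replicates 1 and 2 (with 0.5 CPM added), and of the transporters 3 of 24. Values without this library are therefore given beside some of the members and list genes that it moved, but not beside all of them. The 5 oxygen-response genes checked (CA9, VEGFA, NDRG1, BNIP3, PDK1) were all higher in hypoxia. Of 10 meningioma and arachnoid markers, VIM, DSP, MUC1 and CRABP2 were detected in every library, and all were called higher in hypoxia. MUC1 averaged 25.7 CPM in hypoxia and 6.02 CPM in normoxia, and CRABP2 averaged 184 CPM in hypoxia and 3.175 CPM in normoxia. SSTR2 had 0.180 to 0.508 CPM in hypoxia and 0.641 to 1.15 CPM in normoxia. It was called lower, but not without hypoxia replicate 3. It passed the filter on low counts through its normoxia libraries alone, so its call rests in part on that filter. SLC1A3, a transporter member also listed here, was not called. S100B had at most 0.105 CPM in hypoxia and 0.291 CPM in normoxia, and PTGDS, PGR and CDH1 were at or near 0. The 5 leukocyte markers summed to at most 1.16 CPM in hypoxia and 0.796 CPM in normoxia, and none was tested. The 5 endothelial markers summed to 4.84 to 7.69 CPM in hypoxia and 15.6 to 19.1 CPM in normoxia, with TEK and KDR called lower. The 8 neural and glial markers summed to 23.4 to 26.6 CPM in hypoxia and 25.5 to 30.8 CPM in normoxia, with 2 called higher and 3 lower. Of the 5 keratinocyte markers KRT10 was called higher, and KRT5, KRT14, KRT1 and TP63 were at or near 0. The part of these markers in the transporter results was not tested.

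In hypoxia 4 of the 24 transporters tested were higher, 10 were lower and 10 were not called (edgeR quasi-likelihood test, Benjamini-Hochberg adjusted p under 0.05 over all 16411 genes tested). The 4 that rose were the glutamate transporter gene SLC1A1, the heteromer subunits SLC3A2 and SLC7A5 and the system N carrier gene SLC38A5. Those that fell were led by the cystine transporter gene SLC7A11, the lysosomal SLC38A7, the cationic transporter gene SLC7A2 and the proton-coupled SLC36A1. Of all genes tested, 62.2% were called, 31.2% higher and 31.0% lower, so the transporters' share of 58.3% called was near the background. Scaled by library totals alone, 3 transporters were higher and 10 lower, and 33.1% of all called genes were higher, against 50.1% with TMM, with a median log2 change of -0.30 over all genes. Calls of at least 2-fold numbered 2 higher and 6 lower among the transporters, against 16.3% higher and 17.7% lower of all genes. Their median log2 change was 0.18, against 0.0094 for all genes, but it was -0.01 without hypoxia replicate 3 (-0.02 for all genes) and -0.13 with library totals alone. Their median absolute log2 change was 0.805, against 0.708 for all genes. The 3 hypoxia libraries did not overlap the 3 normoxia libraries for 17 of the 24 transporters, and for 67.9% of all genes.

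**Figure D1:**
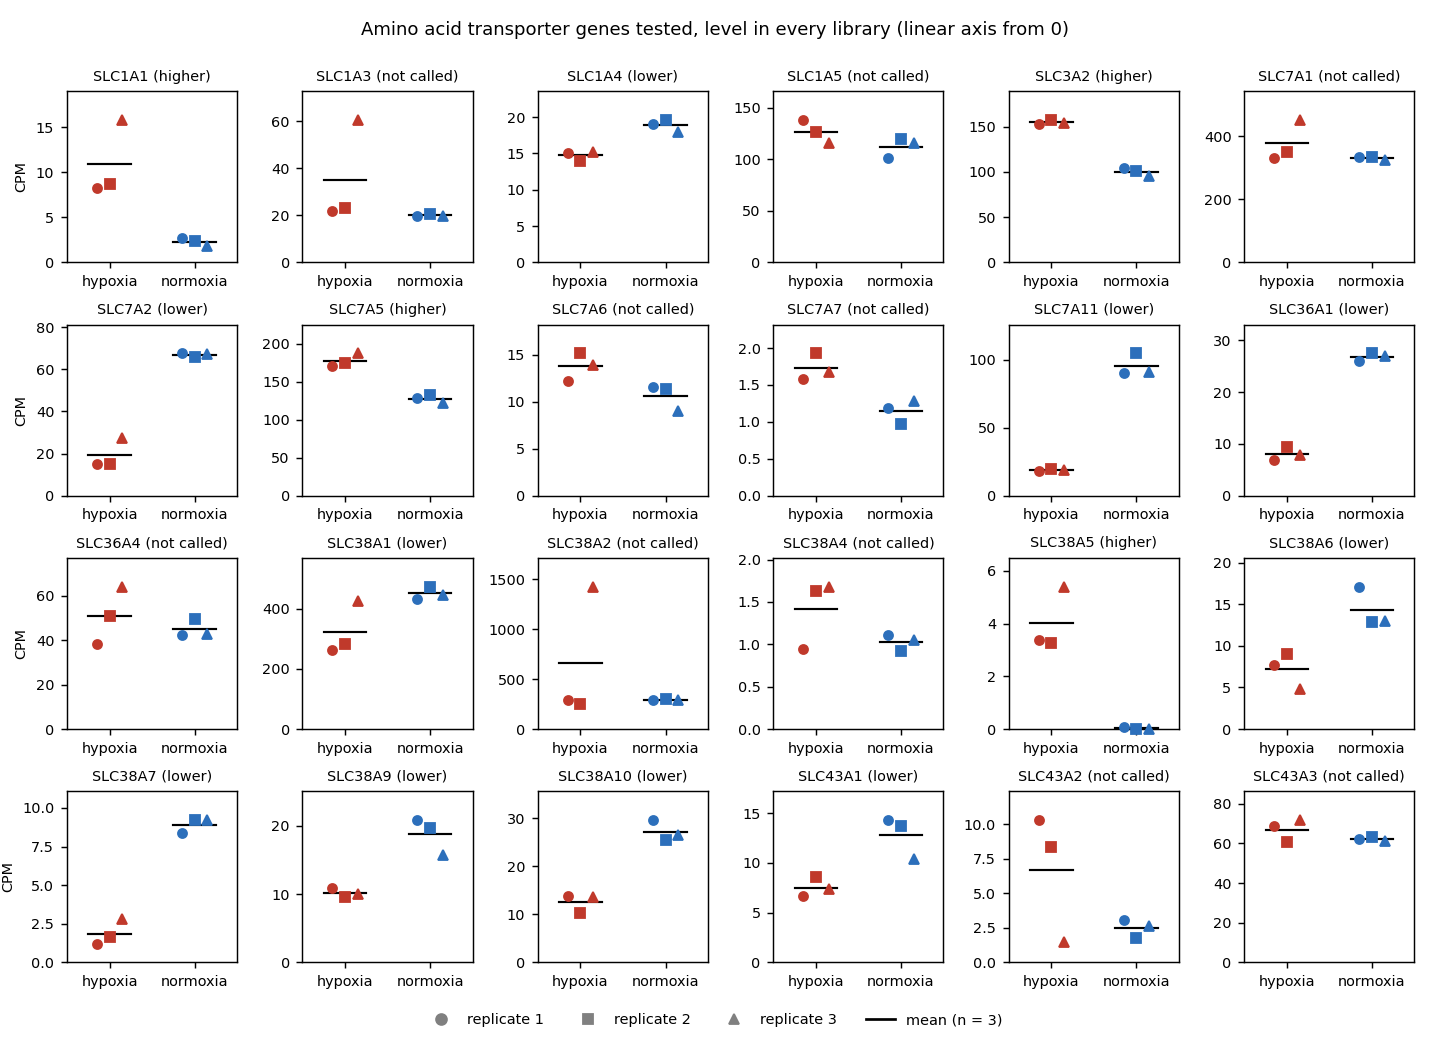
Level in CPM (linear axes from 0) of each of the 24 transporter genes tested, hypoxia left and normoxia right. Points are libraries with a shape for each replicate number, and lines are means of 3. SLC38A2 and SLC1A3 sit high in hypoxia replicate 3 alone, whereas SLC7A11, SLC36A1 and SLC3A2 have hypoxia libraries close to each other.

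Promoter windows show what lies upstream of the genes that moved and of their neighbours in function. RefSeq windows (GRCh38.p14, 250 bases before to 50 after a start) matched 31 members with 53 windows, since a gene can have several starts. The members without a window are SLC1A2, SLC3A1, SLC7A2, SLC7A3, SLC7A4, SLC7A11, SLC7A13, SLC38A3 and SLC43A3. Searched on both strands were the amino acid response core TGATGNAA, the hypoxia response cores ACGTG and GCGTG, the antioxidant response core TGACNNNGC and the E-box CACGTG, which contains ACGTG on both strands. Shown are the windows of SLC1A1 and of the LAT1 partners SLC7A5 and SLC3A2, which rose, and of SLC36A1, which fell, with every match in capitals. For genes with several windows, the one with the most kinds of motif is shown.
SLC1A1 (chr9:4490218-4490517, plus strand): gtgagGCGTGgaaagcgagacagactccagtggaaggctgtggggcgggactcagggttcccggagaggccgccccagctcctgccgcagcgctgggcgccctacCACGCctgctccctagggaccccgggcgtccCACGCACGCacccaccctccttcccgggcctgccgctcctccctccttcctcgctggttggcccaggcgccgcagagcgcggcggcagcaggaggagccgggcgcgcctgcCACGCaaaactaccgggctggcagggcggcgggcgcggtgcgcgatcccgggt
SLC7A5 (chr16:87869458-87869757, minus strand): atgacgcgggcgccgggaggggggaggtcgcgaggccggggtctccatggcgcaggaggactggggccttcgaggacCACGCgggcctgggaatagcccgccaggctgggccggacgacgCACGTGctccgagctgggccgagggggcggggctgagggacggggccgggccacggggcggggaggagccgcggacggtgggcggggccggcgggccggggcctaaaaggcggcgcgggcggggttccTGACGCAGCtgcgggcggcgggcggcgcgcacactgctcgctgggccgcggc
SLC3A2 (chr11:62881449-62881748, plus strand): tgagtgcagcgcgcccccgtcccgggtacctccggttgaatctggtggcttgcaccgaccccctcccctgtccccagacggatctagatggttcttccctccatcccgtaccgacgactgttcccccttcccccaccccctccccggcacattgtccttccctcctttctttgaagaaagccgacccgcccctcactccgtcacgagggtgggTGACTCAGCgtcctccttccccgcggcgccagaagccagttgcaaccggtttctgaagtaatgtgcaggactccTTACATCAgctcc
SLC36A1 (chr5:151447353-151447652, plus strand): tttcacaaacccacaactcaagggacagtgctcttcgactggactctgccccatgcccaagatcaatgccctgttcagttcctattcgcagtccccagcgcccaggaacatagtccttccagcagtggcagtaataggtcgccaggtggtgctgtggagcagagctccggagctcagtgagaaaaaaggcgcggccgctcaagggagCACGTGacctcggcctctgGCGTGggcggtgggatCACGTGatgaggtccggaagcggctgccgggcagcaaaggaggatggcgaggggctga

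The SLC1A1 window holds GCGTG 5 times over both strands, and 2 of these matches share a base. The SLC7A5 window holds an E-box 130 bases before the start, GCGTG on the minus strand and TGACGCAGC at the start itself. The SLC3A2 window holds TGACTCAGC 37 bases before the start and TTACATCA, an amino acid response core on the minus strand, beginning at base 38 after it. It is 1 of 3 windows of the gene, and the others hold GCGTG alone. The SLC36A1 window, from a gene that fell, holds the E-box 2 times, with GCGTG between them. It is 1 of 2 windows of the gene, and the other holds none of the motifs. Over all windows, GCGTG was in 52.8% of the members' windows and in 36.5% of the 35116 windows of the RefSeq table (47.9% of the windows of genes tested here). The other motifs are given in the same order of members' windows, all windows and windows of genes tested here. The E-box was in 17.0%, 7.26% and 9.23%, and ACGTG in 32.1%, 21.4% and 25.5%. TGATGNAA was in 11.3%, 3.62% and 2.13%, and TGACNNNGC in 13.2%, 13.3% and 14.5%. The members' windows include genes not tested. In the 39 windows of tested members alone, GCGTG was in 59.0%, the E-box in 17.9% and ACGTG in 33.3%. There TGATGNAA was in 15.4% and TGACNNNGC in 17.9%. The 6 members with TGATGNAA were SLC1A3, SLC1A4, SLC1A5, SLC38A1, SLC3A2 and SLC7A1, of which 1 was higher, 2 were lower and 3 were not called. A match is a description of the letters and not of a site in use.

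Of the 5 glutamate and aspartate carriers, 2 were tested, of which SLC1A1 was higher and SLC1A3 was not called. SLC1A1 (ENSG00000106688, GRCh38 chromosome 9, 4490444 to 4587469), a neuronal-type glutamate and cysteine importer also called EAAT3, had 8.20, 8.74 and 15.8 CPM in hypoxia, against 2.70, 2.38 and 1.81 CPM in normoxia. All hypoxia libraries were above all normoxia libraries, and the log2 change was 2.26 ± 0.30 (SE; edgeR adjusted p = 7.13e-05), or 1.84 without hypoxia replicate 3 (adjusted p = 1.99e-05). SLC1A3, the glial glutamate transporter EAAT1, had 21.9, 23.2 and 60.5 CPM in hypoxia and 19.6, 20.7 and 19.6 CPM in normoxia. Its log2 change of 0.84 ± 0.40 was not called (edgeR adjusted p = 0.114). It was 0.15 without hypoxia replicate 3, and without hypoxia replicate 1 it was 1.08 and called (adjusted p = 0.0385). Per kilobase of exon, the scale used here to set genes against each other, SLC1A1 averaged 2.73 ± 1.06 in hypoxia and 0.574 ± 0.113 in normoxia, below SLC1A3 at 5.62 ± 3.50 in hypoxia and 3.19 ± 0.0961 in normoxia (CPM per kb, SD, n = 3). SLC1A2 and SLC1A6 had 15 and 9 counts in all, SLC1A7 had 0, and none of these glutamate transporter genes was tested.

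Of the 2 neutral exchangers of the family, 1 was lower and 1 was not called. SLC1A5 (chromosome 19, 46774883 to 46788594), the glutamine exchanger ASCT2, had 138, 127 and 115 CPM in hypoxia and 101, 119 and 116 CPM in normoxia, and the groups overlapped. Its log2 change was 0.17 ± 0.10 (edgeR adjusted p = 0.17), and scaling by library totals alone turned the sign. SLC1A4, the serine and alanine exchanger ASCT1, had 15.04, 13.9 and 15.3 CPM in hypoxia and 19.1, 19.6 and 18.0 CPM in normoxia. Its fall by 0.36 ± 0.13 on the log2 scale (edgeR adjusted p = 0.0319) is a weak call, lost without hypoxia replicate 2 and without normoxia replicate 1 or 2. Per kilobase, SLC1A5 was far above SLC1A4 in both groups, at 37.99 ± 3.41 against 2.12 ± 0.103 in hypoxia, and at 33.7 ± 2.86 against 2.72 ± 0.119 in normoxia.

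Of the heteromeric transporter genes, 2 were higher and 1 was lower among 5 tested. SLC3A2 (ENSG00000168003, chromosome 11, 62856102 to 62888875), the heavy chain 4F2hc that brings light chains to the cell surface, had 153, 157 and 154 CPM in hypoxia, against 104, 101 and 95.6 CPM in normoxia. The hypoxia libraries lay together well above the normoxia libraries, with a log2 change of 0.62 ± 0.09 (edgeR adjusted p = 0.000101). SLC7A5 (ENSG00000103257, chromosome 16, 87830023 to 87869488), the light chain LAT1 that imports leucine and other large neutral amino acids, had 171, 174 and 187 CPM in hypoxia, against 129, 132 and 122 CPM in normoxia. The groups did not overlap, and the log2 change was 0.47 ± 0.09 (edgeR adjusted p = 0.000814). With library totals alone it was 0.16 and was not called (adjusted p = 0.185). Its near-identical short copies SLC7A5P1 and SLC7A5P2 had 0 counts in every library, and how the counting treated reads that fit several places is not given in the sources used here.

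SLC7A11 (ENSG00000151012, chromosome 4, 138164097 to 138242349), the light chain xCT that takes in cystine in exchange for glutamate, had the lowest adjusted p of the members. It had 18.2, 19.9 and 19.0 CPM in hypoxia, against 89.8, 105 and 91.1 CPM in normoxia. The fall was 5.00-fold, a log2 change of -2.32 ± 0.11 (edgeR adjusted p = 6.17e-08), and -2.35 without hypoxia replicate 3. The antisense gene SLC7A11-AS1 shares 8.97% of its exon length and had 114 counts in hypoxia and 80 in normoxia.

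The remaining light chains were low. SLC7A6, which exchanges cationic for neutral amino acids, had 12.2, 15.1 and 13.9 CPM in hypoxia and 11.5, 11.3 and 8.97 CPM in normoxia, with a log2 change of 0.37 ± 0.16 that was not called (edgeR adjusted p = 0.0686). SLC7A6OS on the opposite strand shares 44.4% of its exon length, and without a stated strand setting their reads cannot be told apart. SLC7A7, of the same exchange type and mutated in lysinuric protein intolerance, had 1.58 to 1.93 CPM in hypoxia and 0.977 to 1.28 CPM in normoxia (log2 change 0.58 ± 0.33, edgeR adjusted p = 0.148). SLC7A8, the light chain LAT2, had 36 counts in all and SLC7A10, a serine and glycine exchanger, 2. SLC7A9, the partner of SLC3A1 in kidney and gut, had 4 counts, and SLC7A13, a kidney carrier of acidic amino acids and cystine, had 0. The heavy chain SLC3A1 itself had 20 counts in hypoxia and 11 in normoxia, a ratio of 2.84 after scaling (95% exact counting interval 1.30 to 6.55, which leaves out the spread between libraries), and PREPL on the opposite strand shares 29.4% of its exon length.

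Summed over the light chains that pair with SLC3A2, the level per kilobase was 39.8, 41.2 and 43.7 in hypoxia and 38.3, 40.5 and 36.6 in normoxia, and the groups overlapped. SLC7A5 made up 89.9% ± 0.723 of this sum in hypoxia and 69.9% ± 1.01 in normoxia (SD, n = 3). SLC7A11 made up 4.76% ± 0.245 in hypoxia and 25.6% ± 1.26 in normoxia. The ratio of SLC3A2 to the summed light chains was 0.721 ± 0.0353 in hypoxia and 0.504 ± 0.021 in normoxia. Its size depends on the length used, since with the longest transcript it was 1.59 in hypoxia and 1.12 in normoxia. The shares and ratios are of RNA, are made from the calls above and were not tested on their own.

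**Figure D2:**
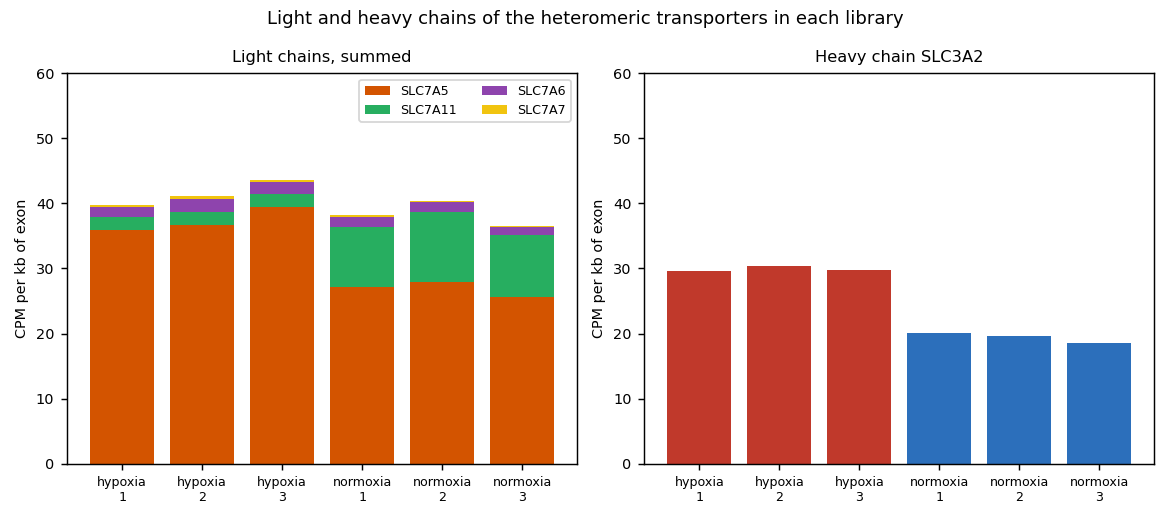
Left, light chain levels stacked in each library, and right, the heavy chain SLC3A2, both in CPM per kilobase of exon, hypoxia libraries first. The summed light chains reach 39.8 to 43.7 in hypoxia and 36.6 to 40.5 in normoxia, while the SLC7A11 part is smaller in each hypoxia library.

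The 2 cationic transporters detected parted. SLC7A2 (ENSG00000003989, chromosome 8, 17497088 to 17570573), the cationic transporter CAT2 that supplies arginine, had 15.1, 14.9 and 27.3 CPM in hypoxia, against 67.6, 65.7 and 67.4 CPM in normoxia. Every hypoxia library was below every normoxia library, and the log2 change was -1.79 ± 0.21 (edgeR adjusted p = 7.04e-05), or -2.18 without hypoxia replicate 3. SLC7A1 (chromosome 13, 29509410 to 29595688), the widely expressed CAT1, had 332, 351 and 452 CPM in hypoxia and 333, 336 and 325 CPM in normoxia. It was not called, with a log2 change of 0.19 ± 0.12 (edgeR adjusted p = 0.183) that was 0.01 without hypoxia replicate 3 and -0.12 with library totals alone. Per kilobase SLC7A1 was the higher of the pair in both groups, at 49.2 ± 8.40 against 2.42 ± 0.893 for SLC7A2 in hypoxia, and at 43.1 ± 0.698 against 8.47 ± 0.137 in normoxia. The brain-type cationic transporter gene SLC7A3 had 2 counts in all, and the relatives SLC7A4 and SLC7A14 had 4 and 7.

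Of the SLC36 genes tested, SLC36A1 fell and SLC36A4 was not called. SLC36A1 (ENSG00000123643, chromosome 5, 151437046 to 151492381), the carrier PAT1 that releases small amino acids from the lysosome, had 6.94, 9.45 and 7.81 CPM in hypoxia, against 26.0, 27.5 and 26.9 CPM in normoxia. The groups were far apart, at a log2 change of -1.73 ± 0.15 (edgeR adjusted p = 3.38e-06). SLC36A4, a high-affinity proline and tryptophan carrier, had 38.2, 50.7 and 64.1 CPM in hypoxia and 42.1, 49.6 and 42.8 CPM in normoxia, and its log2 change of 0.19 ± 0.17 (edgeR adjusted p = 0.345) was -0.04 without hypoxia replicate 3 and -0.11 with library totals alone. SLC36A2, next to SLC36A1 in the genome at 89.45 kb, had 13 counts in all, and SLC36A3 had 1.

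In the SLC38 family 5 of 8 tested genes were lower and 1 was higher, a share of 75.0% called against 62.2% of all genes. Of its 3 system A carriers, which import alanine and glutamine with sodium, 1 was lower and 2 were not called. SLC38A1 (ENSG00000111371, chromosome 12, 46183063 to 46270017), the carrier SNAT1, had 262, 282 and 426 CPM in hypoxia, against 433, 473 and 447 CPM in normoxia. The groups did not overlap, but hypoxia replicate 3 came close to normoxia, and the fall by 0.48 ± 0.17 on the log2 scale (edgeR adjusted p = 0.029) was lost without hypoxia replicate 1 or 2 and without normoxia replicate 2 or 3. Without hypoxia replicate 3 the log2 change was -0.76 (edgeR adjusted p = 5.03e-06). SLC38A2 (ENSG00000134294, chromosome 12, 46358189 to 46372867), the amino acid responsive carrier SNAT2, lies 88.17 kb from it on the same strand. It had 295, 251 and 1424 CPM in hypoxia and 287, 301 and 289 CPM in normoxia. Of the hypoxia libraries, replicate 1 lay within the normoxia range, replicate 2 below it and replicate 3 far above it, at 5.22 times the mean of the other hypoxia libraries.

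The log2 change of SLC38A2 was 1.17 ± 0.78 and was not called (edgeR adjusted p = 0.256), and without hypoxia replicate 3 it was -0.13 (adjusted p = 0.2). SLC38A2 took 17.0%, 14.6% and 45.3% of the summed per-kilobase level of all members in the hypoxia libraries, and 16.0%, 16.0% and 16.2% in normoxia. That sum was 263, 260 and 476 in hypoxia and 271, 284 and 270 in normoxia. Without SLC38A2 it was 219, 222 and 261 in hypoxia and 228, 239 and 226 in normoxia. SLC38A4, the remaining system A member, had 0.946 to 1.68 CPM in hypoxia and 0.916 to 1.11 CPM in normoxia and was not called (log2 change 0.48 ± 0.37, edgeR adjusted p = 0.273).

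SLC38A5 (ENSG00000017483, X chromosome, 48458537 to 48470256), the system N carrier SNAT5 that moves glutamine, histidine and serine, was detected almost only in hypoxia. It had 154 counts in the hypoxia libraries, or 3.37, 3.25 and 5.40 CPM, and 2 counts in normoxia, all in replicate 1. Every hypoxia library was above the normoxia libraries, 2 of which were at 0, and the ratio of the summed scaled counts was 120 (95% exact counting interval 32.7 to 1001, edgeR adjusted p = 8.3e-06). The gene passed the filter on low counts through its hypoxia libraries alone, so that its call and its place among the 4 higher genes rest in part on that filter. Its level stayed low beside SLC38A1 and SLC38A2, at 0.998 ± 0.302 CPM per kilobase in hypoxia. SLC38A3, the other system N gene, had 1 count.

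The lysosomal members of the family fell together. SLC38A7 (ENSG00000103042, chromosome 16, 58665109 to 58685104), which exports glutamine and asparagine from lysosomes, had 1.16, 1.63 and 2.82 CPM in hypoxia, against 8.36, 9.22 and 9.20 CPM in normoxia, a log2 change of -2.18 ± 0.29 (edgeR adjusted p = 7.14e-05). SLC38A9 (ENSG00000177058, chromosome 5, 55625845 to 55773194), the arginine sensor of the mTORC1 pathway, had 10.8, 9.55 and 9.97 CPM in hypoxia, against 20.9, 19.7 and 15.7 CPM in normoxia, a log2 change of -0.89 ± 0.16 (edgeR adjusted p = 0.000596). In both genes every hypoxia library lay below every normoxia library. Without hypoxia replicate 3 the log2 change of SLC38A7 was -2.70. Their summed level was 1.41 ± 0.111 CPM per kilobase in hypoxia and 3.40 ± 0.267 in normoxia.

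The less characterised SLC38A6 and SLC38A10 were lower as well. SLC38A6 had 7.68, 9.04 and 4.803 CPM in hypoxia and 17.1, 12.8 and 12.9 CPM in normoxia (log2 change -1.02 ± 0.24, edgeR adjusted p = 0.00315). TRMT5, a gene on the opposite strand that shares 4.76% of its exon length, had 882 counts in hypoxia and 4569 in normoxia, and its part in the SLC38A6 counts was not tested. SLC38A10 (chromosome 17, 81245000 to 81295547) had 13.9, 10.4 and 13.5 CPM in hypoxia and 29.6, 25.5 and 26.5 CPM in normoxia (log2 change -1.11 ± 0.15, edgeR adjusted p = 8.39e-05). In both genes the groups did not overlap. Without hypoxia replicate 3 the log2 change of SLC38A6 was -0.81. SLC38A8 had 0 counts and SLC38A11 had 1.

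**Figure D3:**
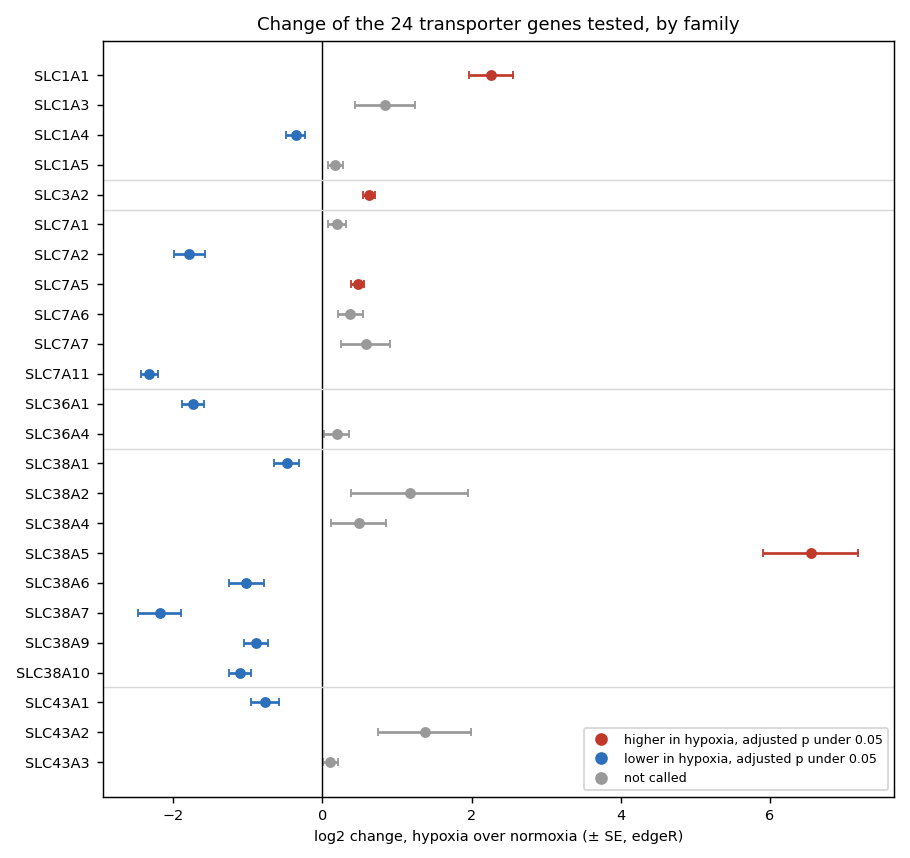
Log2 change, hypoxia over normoxia, with its SE from edgeR, for the 24 transporter genes tested, grouped by family. SLC38 holds 5 of the 10 genes called lower and 8 of the 24 tested, and 31.0% of all genes tested were called lower. The SLC38A5 value is fitted against libraries with 2 counts in all and depends on the prior count.

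In the SLC43 family, 1 of 3 genes was called. SLC43A1, the branched chain facilitator LAT3, had 6.62, 8.53 and 7.39 CPM in hypoxia, against 14.3, 13.7 and 10.4 CPM in normoxia, with no overlap and a log2 change of -0.77 ± 0.19 (edgeR adjusted p = 0.004). SLC43A2 (chromosome 17, 1569267 to 1628886), the related LAT4, had 10.3, 8.33 and 1.501 CPM in hypoxia and 3.09, 1.77 and 2.62 CPM in normoxia. Hypoxia replicate 3 lay below all normoxia libraries while the other hypoxia libraries lay above them. The log2 change of 1.369 ± 0.63 was not called (edgeR adjusted p = 0.0934), and it was 1.85 without hypoxia replicate 3 (adjusted p = 3.2e-05). DESeq2 called it with all libraries (log2 change 1.41, adjusted p = 0.0126). SLC43A3, whose known substrates are purine nucleobases, had 68.6, 60.6 and 71.8 CPM in hypoxia and 62.1, 63.4 and 61.2 CPM in normoxia and was not called (log2 change 0.11 ± 0.10, edgeR adjusted p = 0.37, and -0.20 with library totals alone).

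**Figure D4:**
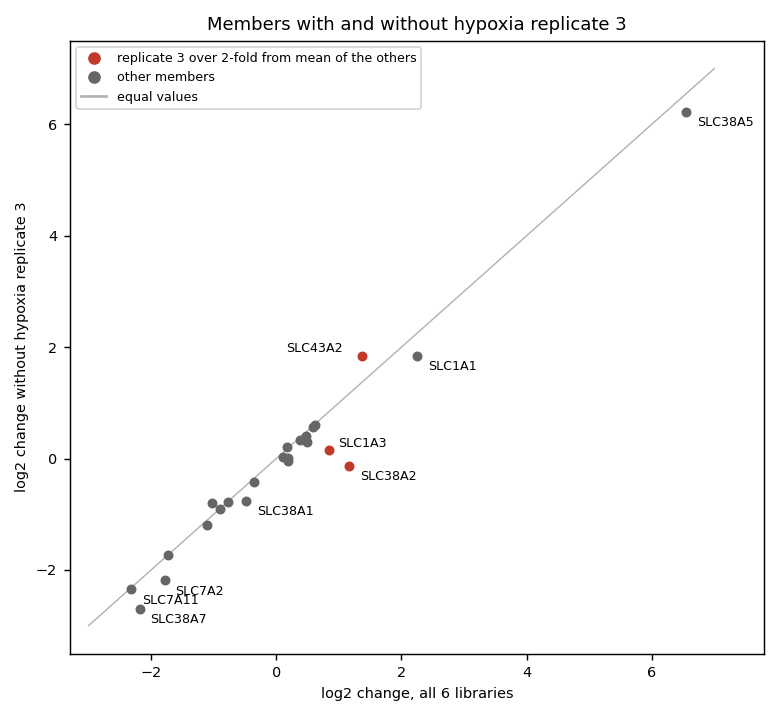
Log2 change of the 24 transporter genes with all 6 libraries (horizontal axis) and without hypoxia replicate 3 (vertical axis), with a line of equal values. The marked genes are SLC1A3, SLC38A2 and SLC43A2, whose level in replicate 3, with 0.5 CPM added, was more than 2-fold from the mean of the other hypoxia libraries. SLC38A7 is not marked, and without the added 0.5 CPM its level there was 2.03 times that mean.

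Read by substrate, genes called in opposite directions included carriers of large neutral amino acids and glutamate, and no difference between genes was tested. For glutamine and serine, SLC38A5 was the only gene named here that was called higher. For large neutral amino acids, SLC7A5 had 37.4 ± 1.85 CPM per kilobase in hypoxia and 26.9 ± 1.10 in normoxia, while SLC43A1 had 2.13 ± 0.272 in hypoxia and 3.63 ± 0.592 in normoxia. For glutamate, the importer SLC1A1 was 4.78-fold higher and SLC7A11, which releases it, was 5.00-fold lower, while SLC1A3, the importer with more RNA per kilobase, was not called. For glutamine, SLC38A5 was higher, SLC38A1 and the lysosomal SLC38A7 were lower, and SLC1A5 and SLC38A2 were not called. For serine, SLC38A5 was higher, SLC1A4 lower and SLC1A5 not called. SLC38A5 had 2 counts in normoxia and passed the filter on low counts through its hypoxia libraries alone. The higher calls for glutamine and serine therefore rest in part on that filter. For cationic amino acids the summed level of the cationic transporters was 51.6 ± 9.27 CPM per kilobase in hypoxia and 51.6 ± 0.649 in normoxia, and it was 45.1, 47.5 and 62.2 in the hypoxia libraries. The carriers named above as exporting from or sensing the inside of the lysosome, SLC36A1, SLC38A7 and SLC38A9, were each lower. Of all genes tested, 31.0% were called lower, and SLC36A4, the other SLC36 gene tested, was not called. No order of the families was tested.

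Genes of connected pathways were read beside the transporters, and their counts stand against the 31.2% of all genes called higher and the 31.0% called lower. In the amino acid response list 14 of 20 tested genes were higher in hypoxia and 4 lower (edgeR adjusted p under 0.05), with a median log2 change of 1.06. ATF4, the factor that drives it, averaged 1379 CPM in hypoxia and 249 CPM in normoxia (log2 change 2.47 ± 0.16), DDIT4, an mTORC1 inhibitor, changed by 3.66 and VLDLR by 2.49, whereas ATF5 changed by -0.88 and EIF2AK2 by -0.72. The kinase gene EIF2AK4, which encodes GCN2, changed by -0.47 ± 0.09 and its partner GCN1 by -0.32 ± 0.09, both called lower, while EIF2AK3, which encodes the endoplasmic reticulum kinase PERK, changed by 1.39 ± 0.13 and was called higher. ASNS and TRIB3 each changed by 0.57 and were called higher, and CHAC1 changed by 0.37 and was not called (edgeR adjusted p = 0.245). EIF2AK4, GCN1, EIF2AK3, ASNS, TRIB3 and CHAC1 were named after their values were seen. In the list of lysosomal sensing to mTORC1, 16 of 37 tested genes were higher and 8 lower, in all near the 62.2% called of all genes. RRAGD, a Rag GTPase that recruits mTORC1, changed by 2.94 ± 0.24 on the log2 scale, NPRL2, a subunit of its inhibitor GATOR1, by 2.22 and TFEB, a factor for lysosome genes, by 1.88, against -1.90 for KICS2 and for the arginine sensor gene CASTOR2.

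Around cystine use, 6 of 10 tested genes were lower and 2 higher, and SLC7A11 is 1 of the 6. CTH, which makes cysteine from cystathionine, changed by -1.20 ± 0.15 on the log2 scale and the thioredoxin reductase gene TXNRD1 by -0.62 ± 0.13, against 0.88 for GGT7 and 0.41 for the lipid peroxidase GPX4. Without hypoxia replicate 3 GPX4 changed by 0.30 and was not called (edgeR adjusted p = 0.238). Of 7 other plasma membrane and vesicular amino acid carriers tested, 4 were higher and 2 lower. The creatine transporter gene SLC6A8 averaged 344 CPM in hypoxia and 46.4 CPM in normoxia (log2 change 2.89 ± 0.15), and its copy SLC6A10P had 4 and 5 counts. The taurine transporter gene SLC6A6 had 266, 255 and 594 CPM in hypoxia and 93.4, 97.2 and 100 CPM in normoxia (1.94 ± 0.35), again with replicate 3 highest, and 1.40 without it. The vesicular glutamate transporter gene SLC17A7 changed by 4.04 at 162 counts in hypoxia and 15 in normoxia, whereas the neutral carriers SLC6A17 and SLC6A15 changed by -3.10 and -0.85. SLC6A17 had 0, 5 and 9 counts in hypoxia and 83, 56 and 48 in normoxia. SLC17A7 passed the filter on low counts through its hypoxia libraries alone, and SLC6A17 through its normoxia libraries alone. Their calls and their places in the list counts therefore rest in part on that filter. Of 12 mitochondrial carriers 4 were higher and 6 lower, from -2.25 for SFXN2 and -1.51 for the ornithine carrier SLC25A15 to 0.72 for SFXN3. SLC25A18, 1 of the 6, had 2, 3 and 6 counts in hypoxia and 23, 15 and 12 in normoxia. It passed the filter on low counts through its normoxia libraries alone, so its call rests in part on that filter. In the list of lysosomal carriers outside the families, 2 of 5 tested genes were higher, SLC17A5 by 0.69 and MFSD12 by 0.46, and 0 were lower. Without hypoxia replicate 3 MFSD12 changed by 0.26 and was not called (edgeR adjusted p = 0.0847).

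Among regulators of transporter turnover and expression, 7 of 13 tested genes were higher and 2 lower. EPAS1, which encodes HIF-2alpha, had 178, 175 and 355 CPM in hypoxia and 17.1, 18.1 and 19.7 CPM in normoxia. Its log2 change of 3.69 ± 0.31 was 3.24 without hypoxia replicate 3. The arrestin-like adaptor ARRDC3 changed by 2.53 and the transcriptional repressor BACH1 by 1.04. Without hypoxia replicate 3 BACH1 changed by 0.81. The ubiquitin ligase NEDD4 changed by -0.86 and MYC by -0.44. The part of these regulators in the transporter changes was not tested. Of 12 enzymes and partners that use the cargo, 3 were higher and 4 lower. ASS1, which makes the arginine precursor argininosuccinate, had 165 counts in hypoxia and 5 in normoxia, and ASL, the next enzyme, changed by 0.63. ASS1 passed the filter on low counts through its hypoxia libraries alone, so its call rests in part on that filter. GOT1 and GOT2, which interconvert glutamate and aspartate, changed by -1.26 and -1.15, and BCAT1, which acts on branched chain amino acids, by -0.76. Without hypoxia replicate 3, called genes were 5 lower in the amino acid response list, 4 lower in the turnover list and 6 lower among the partners. In the same fit 1 was higher around cystine and 1 higher among the lysosomal carriers.

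**Figure D5:**
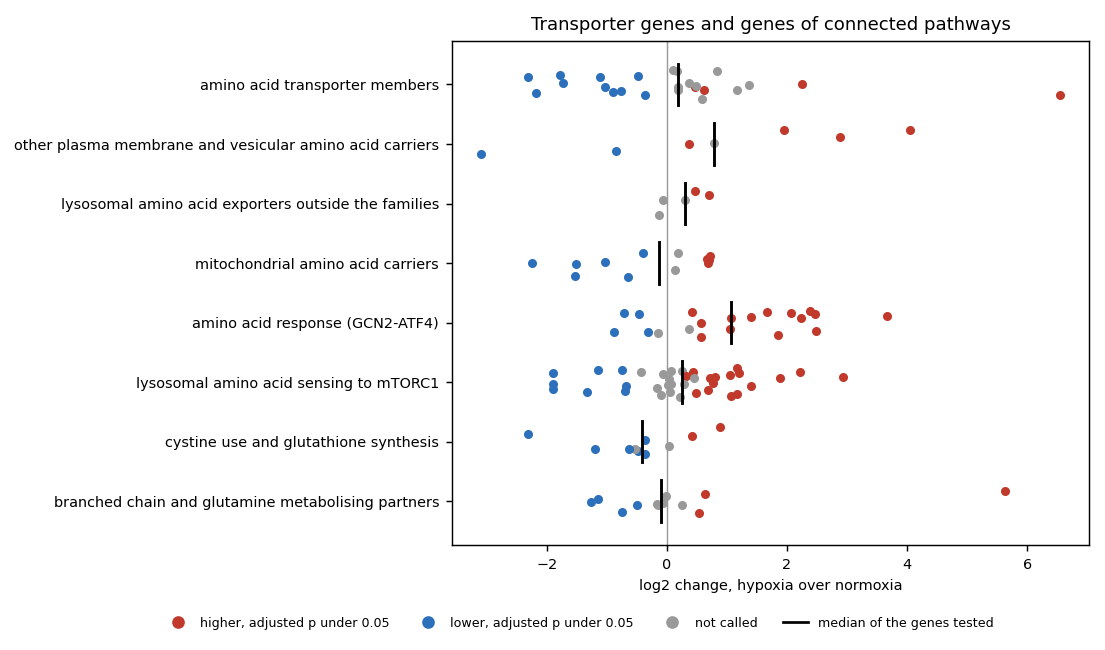
Log2 change, hypoxia over normoxia, of the tested transporter members and of the tested genes in 7 connected lists, 1 point per gene with vertical jitter, and a bar at each median. The list labelled as lysosomal exporters is of lysosomal carriers, not all of them exporters. The median is 1.06 in the amino acid response list and 0.18 for the transporter members, which is -0.01 without hypoxia replicate 3 and -0.13 with library totals alone.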

How the data were processed

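RNA of IOMM-Lee cells was sequenced in 6 libraries, 3 from hypoxia and 3 from normoxia, grouped by their titles. The authors deposited raw counts per Ensembl gene, made with fastp 0.20.1, HISAT2 2.1.0 and featureCounts 2.0.1 on GRCh38.p13, per the submitters' processing notes, which also name DESeq2 1.37.5. How strand and multiply matching reads were treated, and with which annotation, is not given in the sources used here. Of 61860 lines, 1 names no gene (0.00243% of counts) and was left out. A second deposited table, named for FPKM, held a signal equal to the counts divided by 1 factor per library (relative tolerance 1e-06), so it is not per length, and it served only in alternatives.

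Genes were kept by filterByExpr (minimum count 10, minimum total 15) and tested with edgeR 4.0.16 in R 4.3.3, using TMM scaling, the robust quasi-likelihood F test and Benjamini-Hochberg adjustment over 16411 genes, with a threshold of 0.05. The SE is the size of the log2 change divided by the square root of F, and the biological coefficient of variation was 15.3%. TMM factors were 0.866 to 0.927 in hypoxia and 1.07 to 1.16 in normoxia. Levels per kilobase use the union of exons of GENCODE 29. Symbols matched 61756 of 61859 gene IDs. The fits were tested on simulated counts. There edgeR called 15.3% of 59 genes changed 1.5-fold, 66.7% of 66 changed 2-fold and 87.5% of 72 changed 4-fold. It made 19 false calls among 15877 unchanged genes. Far fewer genes were changed there than were called in the data, and a gene not called can still have changed. Alternatives were DESeq2 1.42.0, limma 3.58.1, other scalings, filters and thresholds, a replicate block and leaving out each library. P-values measure only the spread between these libraries, which may be technical.

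The members and gene lists were chosen with earlier results of these data known. Values per library are given for members called at 2-fold or more with a mean of at least 1 CPM, and for 10 defining members of the roles. Each pathway list is represented by up to 3 genes with the largest change in its main direction and 2 in the other, among genes called with a mean of at least 1 CPM.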

Additional observations from a re-analysis of the deposited data

How the results depend on the processing

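Of the 14 transporters called, 12 to 14 were also called under every alternative with a threshold of 0.05 and no minimum fold, which covers DESeq2, limma-voom, 3 other scalings, 2 other filters and each library left out. With library totals alone SLC7A5 was lost, the median log2 change of all genes was -0.30 and 33.1% of the calls were higher, against 50.1% with TMM. The same scaling turned the log2 change of SLC1A5 to -0.14, of SLC7A1 to -0.12, of SLC36A4 to -0.11 and of SLC43A3 to -0.20, none of them called before. With no filter on low counts SLC43A3 was at -0.014. A test against a minimum change of 1.5-fold called 9 transporters, 2 of them higher, which follows from its stricter question. Over the left-out libraries the log2 change of SLC36A4 lay between -0.038 and 0.35, that of SLC38A2 between -0.13 and 1.56, and the number of transporters called between 12 and 15. SLC43A2 was also called by DESeq2, with no filter and without hypoxia replicate 3, SLC1A3 without hypoxia replicate 1 and SLC7A6 among protein-coding genes only. The replicate block called 13 transporters, 4 higher and 9 lower, and lost SLC1A4. Same-numbered libraries did not deviate together (correlations of -0.106, 0.0864 and -0.0378), so the numbers were not taken as pairs. The ratio of SLC3A2 to its light chains was 1.59 in hypoxia and 1.12 in normoxia with the longest transcript. The 16 transporters not tested had 36 counts or fewer each, too few for a test over libraries, and for SLC38A5 the size of the rise is limited by 2 counts in normoxia.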
